A study of Mus musculus with 6 samples.

Results

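The genes described here are 10 granule genes of the neutrophil, 4 early ones of the primary granule (Mpo, Elane, Prtn3 and Ctsg) and 6 late ones that follow during maturation (Ltf, Camp, Ngp, Mmp8, S100a8 and S100a9). They were chosen by name, and their probes are those whose RefSeq accession maps to these symbols, with the brightest probe standing for each gene. All 10 were on the array, out of 20890 genes with a usable probe.

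Neutrophils carry antimicrobial proteins and proteases in granules that are filled in sequence while the cell matures, so granule genes serve as a clock of neutrophil development. Primary (azurophil) granule genes are switched on at the promyelocyte stage and are already active in early progenitors. Genes of the secondary (specific) and tertiary (gelatinase) granules and the S100 proteins of the cytosol follow at later stages, under the C/EBP transcription factors, while primary granule genes depend largely on PU.1, C/EBPa and RUNX factors.

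The study measured gene expression on Agilent 1-colour arrays in KSL cells, the c-Kit+ Sca1+ Lineage- fraction that holds the hematopoietic stem cells, with and without TIF1b. TIF1b is a corepressor of transcription, listed in the reference as Trim28. The fetal liver (FL) KO cells carried Tie2-Cre, which is active in endothelial and blood-forming cells, and Tif1b f/f, and the FL WT cells Tie2-Cre and Tif1b w/w, with 1 array each. Adult bone marrow (BM) KO cells carried CreERT, a Cre that is active once an estrogen receptor ligand is given, and Tif1b f/f, and BM WT cells CreERT and Tif1b w/w, with 2 arrays each. The background strain was C57BL6 throughout, all WT groups carry the Cre of their tissue, and the labels used here give no ages and no ligand treatment. In the labels of BM replicate 2 the gene reads Tif2b, here treated as Tif1b. Whether arrays of 1 group stem from different animals is not stated, so p-values reflect just the spread among these arrays, which may be technical.

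A level here is the log2 of a probe's signal over the 75th percentile signal of its array, so it is comparable between arrays for 1 gene and not between genes. Differences are KO minus WT on the log2 scale unless another direction is named. The 75th percentile signal was 211 in FL KO, 219 in FL WT, 325 and 743 in BM KO, and 281 and 737 in BM WT, and 24383 to 31419 probes per array were well above background. By the scanner files, the 6 arrays lay on 3 slides, each with 1 KO and 1 WT array of 1 tissue. BM pair 1 and BM pair 2 are thus also slides.

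One array stood apart before any result was drawn. For the array labelled BM WT replicate 1, the scanner file and the column of the authors' value table matched within 1% for 1.40% of the probes whose table ratio was 0.1 or more, against at least 99.98% on each of the other 5 arrays. Trim28 on that array had a scanner level of 2.45 and a table level of 5.18, against 1.28 and 0.75 in BM KO and 5.55 in BM WT replicate 2. In FL it was at 1.68 in KO and 5.97 in WT, and the sources used here do not say if its probe matches the deleted exons. Kit (the gene of c-Kit, used in the sort) had a scanner level of 1.30 and a table level of 4.16 on it, while the remaining 5 arrays spanned 4.17 to 4.50. Ly6a, which encodes Sca-1, was at 4.48 and 3.36 there, against 3.60 and 6.04 in BM KO and 4.75 in BM WT replicate 2. In FL it was lower, at 0.77 in KO and 0.31 in WT. One description line of that sample names a knockdown of Hp1a, and that of BM KO replicate 1 one of Hp1g, in c-Kit+ Lineage- cells. The sample is called by its label below, BM genes and gene lists are given from both sources, and each BM direction from the scanner files draws on the array so labelled.

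The 2 sources were opposite for early and late granule genes on that array. All 4 early genes were lower in its scanner file than in its table column, by 1.19 for Mpo at the least and by 3.54 for Prtn3 at the most. All 6 late genes were higher in the scanner file, by 3.62 for Mmp8 at the least and by 6.61 for Ltf at the most.

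In the RefSeq annotation GRCm38.p6, Prtn3 and Elane are neighbours on chromosome 10 and S100a8 and S100a9 on chromosome 3, with no listed gene between them. Camp, Ngp, Ltf and Mmp8 lie on chromosome 9, Mpo on chromosome 11 and Ctsg on chromosome 14. The promoters of both neighbouring pairs and of Mmp8 are shown as examples of early and late genes with the letters compared below. Each runs from 250 bases before the gene's start to 50 after it, 5′ to 3′ on the gene's strand, from RefSeq GRCm38.p6. Capitals mark the letters GAGGAA, the core of a PU.1 site, which read TTCCTC where the site lies on the other strand. They also mark TTNNGNAA, a loose C/EBP pattern, which reads TTNCNNAA on the other strand, and no match of one overlaps the other.
Elane, chr10:79886062-79886361, plus strand: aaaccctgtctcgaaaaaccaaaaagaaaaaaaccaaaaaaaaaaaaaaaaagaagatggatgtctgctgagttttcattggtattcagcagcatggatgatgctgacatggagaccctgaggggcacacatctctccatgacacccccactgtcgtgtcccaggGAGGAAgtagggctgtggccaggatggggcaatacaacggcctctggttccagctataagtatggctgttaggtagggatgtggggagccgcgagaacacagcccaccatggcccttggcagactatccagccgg
Prtn3, chr10:79879417-79879716, plus strand: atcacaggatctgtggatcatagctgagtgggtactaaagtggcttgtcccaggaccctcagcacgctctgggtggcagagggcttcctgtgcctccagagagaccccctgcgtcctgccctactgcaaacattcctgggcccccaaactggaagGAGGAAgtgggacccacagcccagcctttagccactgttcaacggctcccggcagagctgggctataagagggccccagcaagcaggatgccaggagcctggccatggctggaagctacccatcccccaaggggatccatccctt
Mmp8, chr9:7558179-7558478, plus strand: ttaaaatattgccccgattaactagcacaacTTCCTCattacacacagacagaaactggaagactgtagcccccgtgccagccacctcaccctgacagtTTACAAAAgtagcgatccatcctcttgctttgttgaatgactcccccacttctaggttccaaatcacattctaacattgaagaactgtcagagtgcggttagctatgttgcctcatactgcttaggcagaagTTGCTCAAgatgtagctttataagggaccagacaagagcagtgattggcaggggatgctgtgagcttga
S100a8, chr3:90668821-90669120, plus strand: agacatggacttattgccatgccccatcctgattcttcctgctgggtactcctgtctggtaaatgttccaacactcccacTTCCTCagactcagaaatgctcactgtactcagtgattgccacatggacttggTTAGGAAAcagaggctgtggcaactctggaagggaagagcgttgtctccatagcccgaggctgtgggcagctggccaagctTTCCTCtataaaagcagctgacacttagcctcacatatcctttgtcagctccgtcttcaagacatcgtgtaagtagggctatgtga
S100a9, chr3:90695672-90695971, minus strand: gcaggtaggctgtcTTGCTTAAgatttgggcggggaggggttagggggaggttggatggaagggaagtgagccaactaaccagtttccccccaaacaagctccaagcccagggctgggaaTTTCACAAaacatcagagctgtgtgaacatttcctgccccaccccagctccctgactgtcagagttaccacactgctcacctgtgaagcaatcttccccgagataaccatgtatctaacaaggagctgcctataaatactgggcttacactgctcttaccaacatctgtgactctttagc

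The GAGGAA letters were found in the promoters of all 4 early genes and of 3 of the 6 late genes (Ltf, Mmp8 and S100a8). Over 32851 promoters of the same length, 28.3% hold them. In Elane they begin at position -85 and in Prtn3 at -95, counted from the gene's first base as 0. The C/EBP pattern was found in 5 of the 6 late genes and in none of the 4 early ones, against 40.7% of the 32851 promoters. The exception among late genes was Camp. In Mmp8 it begins at -151 and -19, in S100a8 at -117 and in S100a9 at -236 and -130. The letters TGTGGT of a RUNX site and the letters TATAAA were also searched on both strands. TGTGGT was found in 3 of the 10 promoters, of the early gene Ctsg and the late genes Ltf and S100a9, against 16.8% of promoters. TATAAA was found in 4 of 10, of the early gene Ctsg and the late genes Mmp8, S100a8 and S100a9, against 13.6%. All these matches are letters in a short window and say nothing of binding.

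In BM, all 10 granule genes were lower in KO than in WT by the mean of both pairs, in both sources. In the value table the 2 KO arrays lay below the 2 WT arrays for 10 of 10 genes, as they did for 19.5% of the 12944 genes tested. In the scanner files this held for 9 of 10, against 13.1% of 13174 genes, and Prtn3 was the exception. Elane, Camp, Mmp8 and S100a9 passed the test in the table (limma, Benjamini-Hochberg adjusted p under 0.05 over all genes), and with the same test 0.348% of genes passed with a lower level in KO. Mmp8 was not well above background on either BM KO array, so it entered the test through BM WT alone. With the slide entered as a block in the model (a slide block) 9 of the 10 genes passed, Ngp being the exception, against 3.63% of genes that passed with a lower level. The block leaves less to estimate each gene's own spread from, and 970 genes passed with it, against 105 without it. The slide of BM WT replicate 1 is known for its scanner file only. For its table column, values with a slide block assume the same slide. At an unadjusted p under 0.05 the table gave 10 of 10 genes, against 11% of all genes. In the scanner files 0 of 10 passed, as did 0 of all 13174 genes, while 4 of 10 had an unadjusted p under 0.05, against 4.23% of genes. Without the filter on dim probes none of the 4 genes passed in the table (limma adjusted p = 0.116 to 0.162), and Elane did not pass with only probes above background on every array (limma adjusted p = 0.0580). In bulk RNA, fewer cells of a type and less RNA per cell cannot be told apart.

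**Figure D1:**
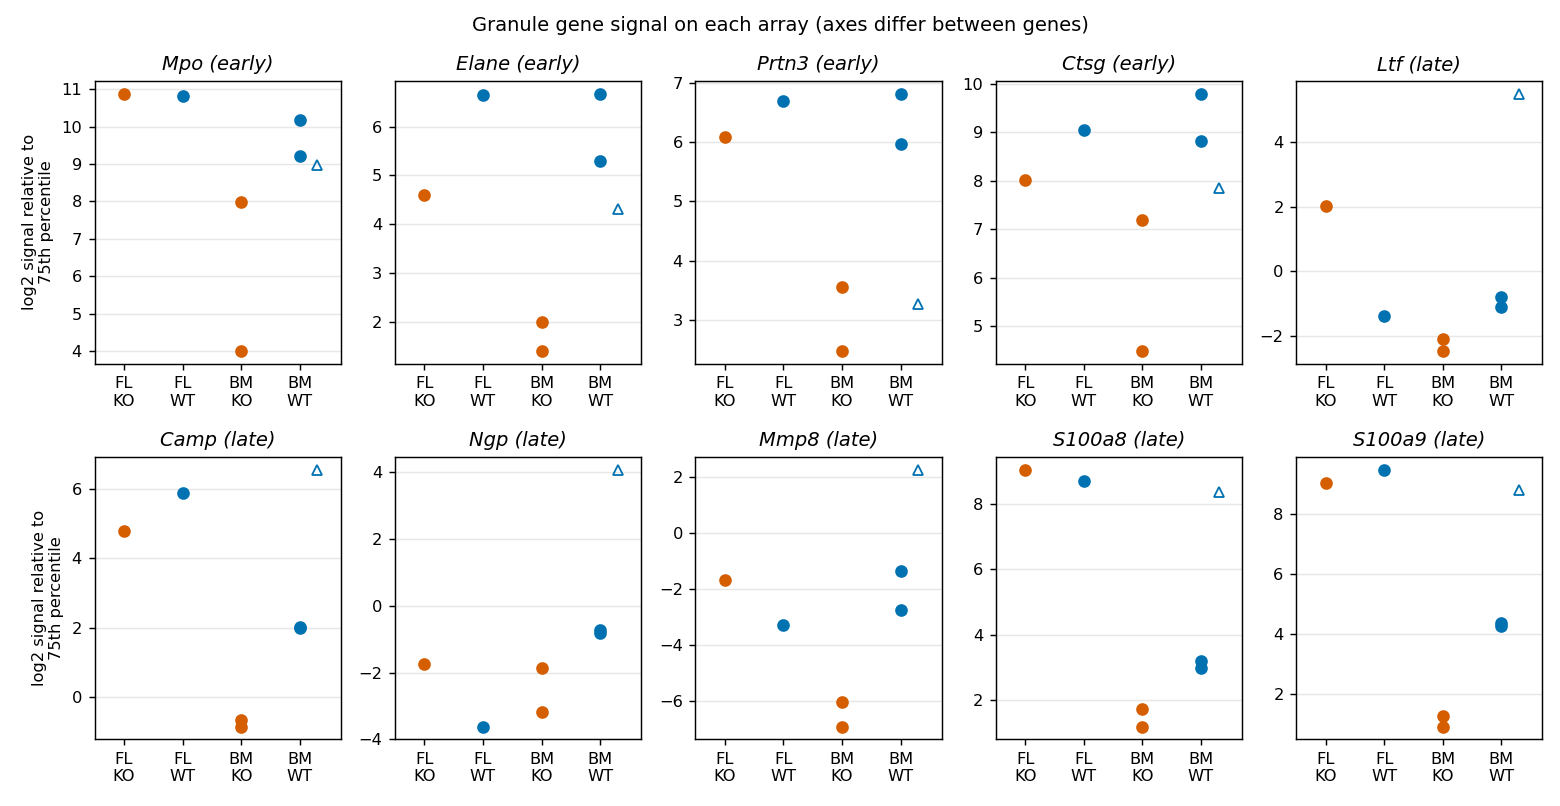
Log2 signal relative to the array's 75th percentile for each of the 10 granule genes on each array, with KO in orange, WT in blue, and KO left of WT within FL and BM. Filled points are 1 array each, with the value table used for BM WT replicate 1, whose scanner file value is the open triangle. In BM every filled KO point lies below every filled WT point, and the triangle lies above all other BM points for the 6 late genes.

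Among the early genes, Mpo encodes myeloperoxidase, which makes hypochlorous acid in the primary granule. Its level was 7.99 and 4.0 in BM KO replicates 1 and 2, against 8.99 (scanner file) or 10.18 (table) in BM WT replicate 1 and 9.21 in BM WT replicate 2. The KO arrays lay below the WT arrays, but they were also nearly 4 log2 units apart from each other. The difference was -3.70 ± 1.27 in the table (SE, n = 2 arrays per genotype) and did not pass in limma (adjusted p = 0.359), while with a slide block it did (adjusted p = 0.0462).

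Elane encodes neutrophil elastase, a serine protease. It was at 2.00 and 1.41 in BM KO replicates 1 and 2, against 4.32 (scanner file) or 6.67 (table) in BM WT replicate 1 and 5.29 in replicate 2. Both KO arrays lay well under every WT value, and this was the early gene with the smallest spread between KO arrays. Elane fell by 4.27 ± 0.51 in the table, which is 19.3-fold (limma adjusted p = 0.0403, and 0.0033 with a slide block). The scanner files gave -3.10 ± 0.51 (limma adjusted p = 0.823).

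Prtn3 encodes proteinase 3, the elastase-like protease of the neighbouring gene. It was at 3.56 and 2.48 in BM KO replicates 1 and 2, against 3.27 (scanner file) or 6.81 (table) in BM WT replicate 1 and 5.97 in replicate 2. Only the scanner value of BM WT replicate 1 fell between the KO arrays, and there pair 1 differed by 0.29 with KO the higher. In the table the difference was -3.37 ± 0.48 (limma adjusted p = 0.0586, and 0.0029 with a slide block).

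Ctsg encodes cathepsin G, a further primary granule protease. Its level was 7.18 and 4.49 in BM KO replicates 1 and 2, against 7.84 (scanner file) or 9.80 (table) in BM WT replicate 1 and 8.82 in replicate 2. The groups did not overlap in either source, and KO replicate 2 was the lowest array, as for the other 3 early genes. The table gave -3.47 ± 0.90 (limma adjusted p = 0.220, and 0.0155 with a slide block).

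Among the late genes, Ltf encodes lactoferrin, the iron-binding protein that typifies secondary granules. It was at -2.09 and -2.47 in BM KO replicates 1 and 2, against 5.49 (scanner file) or -1.12 (table) in BM WT replicate 1 and -0.81 in replicate 2. KO was below WT in both sources, narrowly in the table and widely in the scanner files. The table difference was -1.32 ± 0.28 (limma adjusted p = 0.150, and 0.0357 with a slide block).

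Camp encodes the precursor of the antimicrobial peptide CRAMP. It was at -0.85 and -0.65 in BM KO replicates 1 and 2, against 6.55 (scanner file) or 1.98 (table) in BM WT replicate 1 and 2.01 in replicate 2. With the table the arrays of each genotype lay close together and the genotypes far apart. Camp fell by 2.74 ± 0.25, or 6.70-fold (limma adjusted p = 0.0215, and 0.0033 with a slide block). Its other, dimmer probe gave -1.76 in the table and -4.63 in the scanner files. Without BM WT replicate 1 the difference by the brighter probe was much the same, at -2.76, while the limma adjusted p was 0.0574 with 1 WT array left and the spread taken from the KO pair.

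Ngp encodes neutrophilic granule protein, a cathelicidin-related protein of mouse secondary granules. Its level was -3.18 and -1.86 in BM KO replicates 1 and 2, against 4.08 (scanner file) or -0.72 (table) in BM WT replicate 1 and -0.82 in replicate 2. The groups did not overlap, with the closest KO and WT arrays about 1 log2 unit apart. In the table the difference was -1.75 ± 0.47 (limma adjusted p = 0.233, and 0.0553 with a slide block).

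Mmp8 encodes neutrophil collagenase, stored in secondary granules. It was at -6.03 and -6.92 in BM KO replicates 1 and 2, not well above background on either, against 2.28 (scanner file) or -1.35 (table) in BM WT replicate 1 and -2.75 in replicate 2. The signal of a group below background gives only a bound. Mmp8 was at least 5.37-fold lower in BM KO than in BM WT in the table, and at least 18.9-fold lower in the scanner files. The limma tests are of the measured signals and not of these bounds. Their adjusted p was 0.0453 in the table (0.0022 with a slide block) and 1.00 in the scanner files. For the bound, the Mmp8 signal of each KO array was raised to that of the dimmest probe still well above background, where it was lower. The table call ended when arrays were scaled by quantiles (limma adjusted p = 0.0613) or when all probes of each gene were averaged (limma adjusted p = 0.0515).

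S100a8 and S100a9 encode the subunits of calprotectin, a calcium-binding and zinc-binding protein of the neutrophil cytosol. S100a8 was at 1.17 and 1.73 in BM KO replicates 1 and 2, against 8.38 (scanner file) or 2.97 (table) in BM WT replicate 1 and 3.18 in replicate 2. S100a9 was at 0.93 and 1.29 in BM KO replicates 1 and 2, against 8.78 (scanner file) or 4.39 (table) in BM WT replicate 1 and 4.27 in replicate 2. For both genes the KO arrays lay below all WT values. S100a9 fell by 3.21 ± 0.27, or 9.28-fold, in the table (limma adjusted p = 0.0197, and 0.0033 with a slide block). The S100a8 difference was smaller, at -1.62 ± 0.30 (limma adjusted p = 0.104, and 0.0124 with a slide block).

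In the scanner files the differences were -3.10 ± 1.32 for Mpo, -1.60 ± 0.99 for Prtn3 and -2.50 ± 0.98 for Ctsg. For the late genes they were wider and less certain, at -4.62 ± 2.04 for Ltf, -5.03 ± 1.49 for Camp, -4.15 ± 1.66 for Ngp, -4.33 ± 1.70 for S100a8 and -5.41 ± 1.49 for S100a9. None of these 8 passed (limma adjusted p = 1.00 for each).

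**Figure D2:**
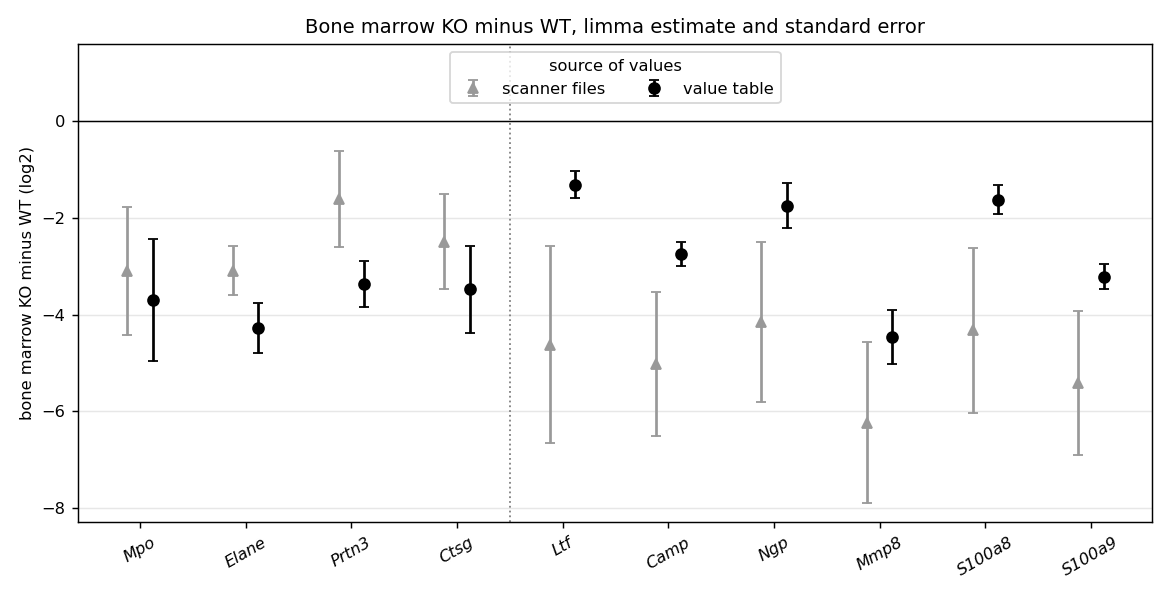
Difference of BM KO minus WT on the log2 scale for each granule gene, as the limma estimate (points) with its standard error (bars), from the scanner files (grey triangles) and the value table (black circles), 2 arrays per genotype. Every estimate lies below 0, the early genes (left of the dotted line) lie lower in the table, and the late genes lie lower in the scanner files with errors of 1.49 to 2.04. Mmp8 is drawn at its measured signal, which was below background in BM KO.

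Grouped by granule stage, the order of early and late genes changed with the source and with the arrays used. In the table the median BM difference was -3.59 over the 4 early genes and -2.25 over the 6 late genes, beside -0.05 over all 12944 genes. In the scanner files it was -2.80 for early and -4.82 for late genes, beside 0.06 over all 13174 genes. Without BM WT replicate 1 the scanner medians were -3.10 for early and -2.24 for late genes. Within the table the order turned too, narrowly, without BM KO replicate 2, at -2.48 for early and -2.62 for late genes. With Mmp8 at its bound the late medians were -2.09 in the table and -4.47 in the scanner files.

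Pair by pair, late genes were the lower ones only in pair 1 with the scanner file of BM WT replicate 1. Pair 2, which does not hold that array, gave medians of -4.10 for early and -2.16 for late genes in the scanner files. Pair 1 gave -0.83 and -7.49 with the scanner file, and -2.93 and -2.64 with the table column. With Mmp8 at its bound the late medians were -1.91 in pair 2 and, in pair 1, -7.32 (scanner file) and -2.56 (table). In pair 2 each of the 10 genes was at least 2-fold lower in KO in both sources, as were 4.02% (scanner files) and 4.24% (table) of all genes. In pair 1 this held for 9 of 10 genes with the table (5.54% of all genes), Ltf being 1.97-fold lower, and for 7 of 10 with the scanner file (12.2% of all genes).

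**Figure D3:**
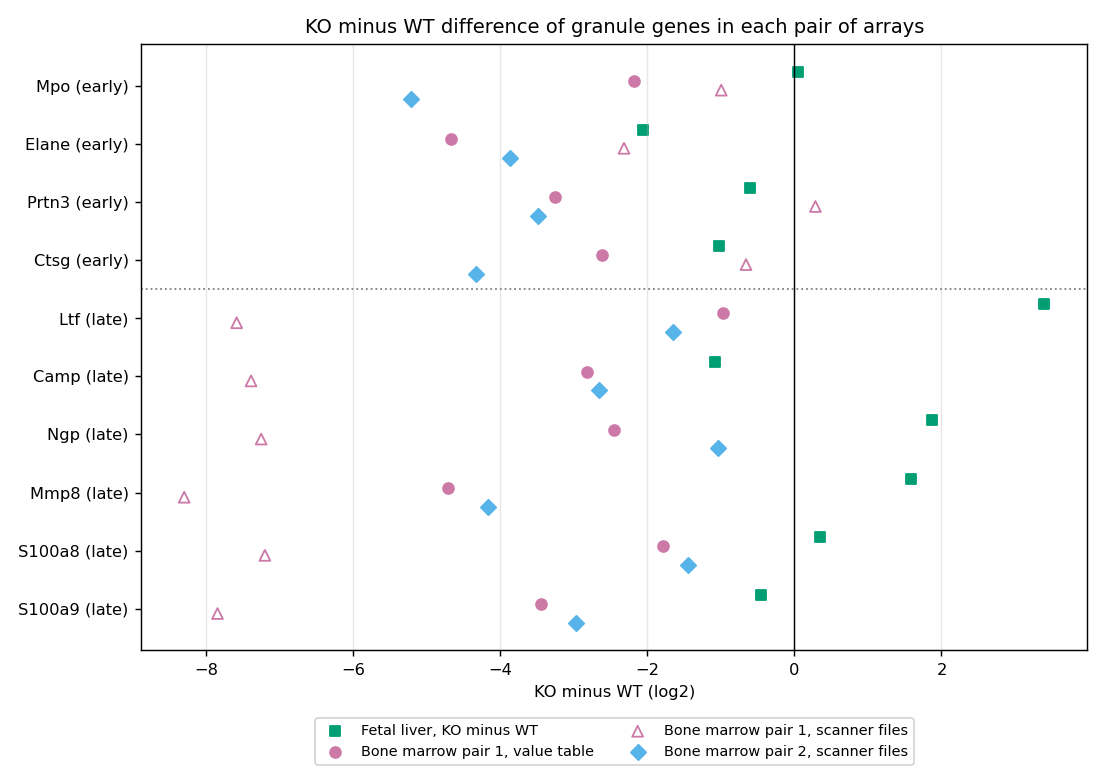
KO minus WT on the log2 scale for each granule gene in FL (squares), in BM pair 1 from the value table (filled circles) and from the scanner files (open triangles), and in BM pair 2 from the scanner files (diamonds), with early genes above the dotted line. All pair 2 and pair 1 table points lie below 0, the pair 1 scanner points split by stage, and FL points lie on both sides of 0.

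In FL, where each genotype has 1 array and the 2 arrays are compared with no test, the granule genes did not share a direction. The early genes were lower or level in KO. Elane was at 4.59 in FL KO, against 6.65 in FL WT, a difference of 4.16-fold. Ctsg was at 8.02 in FL KO, against 9.05 in FL WT, and Prtn3 at 6.09 in FL KO, against 6.70 in FL WT. Both were lower in KO, Ctsg by just over 2-fold. Mpo was at 10.88 in FL KO and 10.83 in FL WT, a difference of 0.05.

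The late genes of FL went different ways, with 3 genes higher in KO, Camp lower and the S100 pair nearly level. Ltf was at 2.02 in FL KO, against -1.38 in FL WT, 10.6-fold higher. Ngp was at -1.75 in FL KO, against -3.62 in FL WT, and Mmp8 at -1.68, against -3.27. Both were not well above background in FL WT, so they were at least 2.87-fold (Ngp) and at least 3.01-fold (Mmp8) higher in FL KO. Camp was at 4.79 in FL KO, against 5.87 in FL WT, and thus over 2-fold lower. S100a8 was at 9.07 in FL KO and 8.73 in FL WT, and S100a9 at 9.02 in FL KO and 9.47 in FL WT. Over all genes tested in FL, 5.41% were at least 2-fold higher and 4.47% at least 2-fold lower in KO. Of the 10 granule genes 3 were at least 2-fold higher and 3 at least 2-fold lower. Of the higher ones, Ngp and Mmp8 entered this set through FL KO alone, so they could hardly have counted as lower. The median difference was -0.82 over the early genes and 0.97 over the late genes (0.93 with Ngp and Mmp8 at their bounds), beside -0.06 over all 12873 genes.

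The KO difference in BM was set against that in FL by an interaction contrast over all 6 arrays, in which the lone FL arrays are assumed to vary like the BM arrays. All 10 estimates were negative in both sources, but that of Prtn3 in the scanner files (-0.995) turned to 0.36 without BM WT replicate 2. Those of Mmp8 and Ngp rest in part on signals below background. In limma 0 of 10 passed in the table, as did 0 of 13695 genes, and likewise in the scanner files 0 of 10 and 0 of 13858. At an unadjusted p under 0.05 the table gave 7 of 10, against 7.08% of genes, and the scanner files 1 of 10 (Mmp8), against 2.66% of genes. With a slide block 4 genes passed in the table, against 1.49% of genes that passed in that direction. These were Prtn3 (limma adjusted p = 0.0316), Ltf (0.0216), Mmp8 (0.0209) and S100a9 (0.0406). A KO difference common to both tissues, fitted with tissue as a term, passed for 0 of 10 genes in either source. This compares with 0.0365% of genes that passed with a lower level in the table and 0 of 13858 genes in the scanner files. At an unadjusted limma p under 0.05 the scanner files gave 2 of 10, against 479 genes (3.46%). The table gave 5 of 10, against 1419 of 13695 genes.

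Between tissues, 3 of the 6 late genes passed in the table. By direction 5 late genes were lower in BM there and 1, Ngp, was higher, while Ltf, Ngp and Mmp8 did not pass. BM arrays were lower than FL arrays for Camp, S100a8 and S100a9, with BM minus FL differences of -4.71 ± 0.39, -6.64 ± 0.48 and -6.52 ± 0.62 (SE) in the table (limma adjusted p = 0.0035, 0.0025 and 0.0047, over 4 BM and 2 FL arrays). The same 3 genes passed with the slide as a random block (3.34% of genes passed with a lower level), at adjusted p of 0.0217, 0.0163 and 0.0300. In that contrast 13.8% of genes passed with a lower and 8.9% with a higher level in BM, at a median of -0.26 over all genes. Of the genes that passed, 1896 were lower and 1219 higher in BM, whereas with quantile scaling 1361 were lower and 1597 higher, and the 3 granule genes passed there too. In the scanner files 0 of 10 genes passed, against 1.23% of genes that passed with a lower level. The levels themselves were apart: the S100 genes stood at 8.73 to 9.47 on both FL arrays and at 0.93 to 4.39 on the BM arrays by the table. Among the early genes none passed, with differences of -0.96 (Ctsg) to -3.01 (Mpo) in the table. No slide held arrays of both tissues, so the random block cannot separate tissue from slide. Tissue, stage of life, Cre driver and slide cannot be told apart here.

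The patterns of the granule genes over the 6 arrays of the table were compared with each other. Pearson's r between pairs of early genes was 0.83 to 0.97 with a median of 0.92, as a description over 6 arrays that share tissue and genotype. Pairs of late genes ranged from -0.27 to 0.99 with a median of 0.69, and early with late from -0.01 to 0.94 with a median of 0.63. Among 13685 genes, those most like the mean of the early genes were Eif2ak1 (r = 0.998), Nadk (0.996), Agpat5 (0.995), Cx3cr1 (0.993) and Dram1 (0.993). Most like the late genes were Cebpb (0.996), Map3k1 (0.996), Flt1 (0.995), Scamp2 (0.994) and Csf3r (0.991). Cebpb encodes a C/EBP factor and Csf3r the receptor of G-CSF. With the scanner files the likest genes were other ones, led by Tra2a (0.987) for early and Pik3ap1 (0.997) for late genes.

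Most regulators of granulocyte development lay lower in BM KO. By the table, 8 of 9 measured regulators were lower in KO at a median of -1.07, beside -0.05 over all genes. In limma 0 passed, and 5 passed lower with a slide block, against 3.63% of all genes. By the scanner files 8 of 9 were lower too (median -0.84), and 0 passed with or without the block. Cebpe, which drives secondary granule genes, was at 0.82 and -0.89 in BM KO, against 4.11 (table) and 1.98 in BM WT. That is a difference of -3.08 ± 0.86 (limma adjusted p = 0.250, and 0.0033 with a slide block). Cebpd gave -2.02 and Cebpa, needed for the granulocyte-monocyte stage, -1.83 (with a slide block limma adjusted p = 0.0060 and 0.0475). From the scanner files these 3 genes gave -2.81, -1.47 and -1.04. There the KO and WT arrays overlapped for Cebpa, at 0.44 in pair 1 and -2.52 in pair 2. In FL all 3 were slightly higher in KO, by 0.48, 0.37 and 0.21.

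Other granule genes were split in direction by the table, while most were lower in BM KO by the scanner files. Of 8 further primary granule genes 4 were lower and 4 higher in BM KO by the table (median -0.02), 0 passed, and 1 passed with a slide block. That was Prss57, a serine protease, at -2.19 ± 0.61 (limma adjusted p = 0.248, and 0.0159 with a slide block). Of 10 further secondary and tertiary granule genes 5 were lower and 5 higher (median -0.05), and 0 passed. With a slide block 3 passed lower and 1 higher (of all genes 3.63% passed lower and 3.86% higher). The 3 lower ones included Hp, which encodes haptoglobin, at -4.15 ± 1.06, and Lcn2, which encodes the iron-siderophore binder lipocalin 2, at -2.84 ± 0.64. Their limma adjusted p was 0.217 and 0.166, and 0.0103 and 0.0059 with a slide block. By the scanner files 5 of 8 further primary genes (median -0.35) and 9 of 11 further secondary and tertiary genes (median -1.17) were lower, and 0 passed with or without the block. Prss57, Hp and Lcn2 were at -1.60, -4.03 and -3.92 there.

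Of 12 receptors of the lineage 9 were lower in BM KO by the table (median -0.37), with 0 passing. With a slide block 2 passed lower and 1 higher, against 3.63% and 3.86% of all genes. Fcgr3, an Fc receptor of phagocytes, differed by -2.84 ± 0.47 (limma adjusted p = 0.0811, and 0.0033 with a slide block), and Csf2rb2 by 1.33. The 5 genes of the NADPH oxidase, which makes the oxidative burst, were all lower by the mean (median -0.91), and 0 passed. With a slide block 2 of the 5 passed lower, against 3.63% of all genes. By the scanner files 9 of 12 receptors (median -0.52) and all 5 oxidase genes (-0.70) were lower and 0 passed with or without the block, with Fcgr3 at -2.69 and Csf2rb2 at 0.50.

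**Figure D4:**
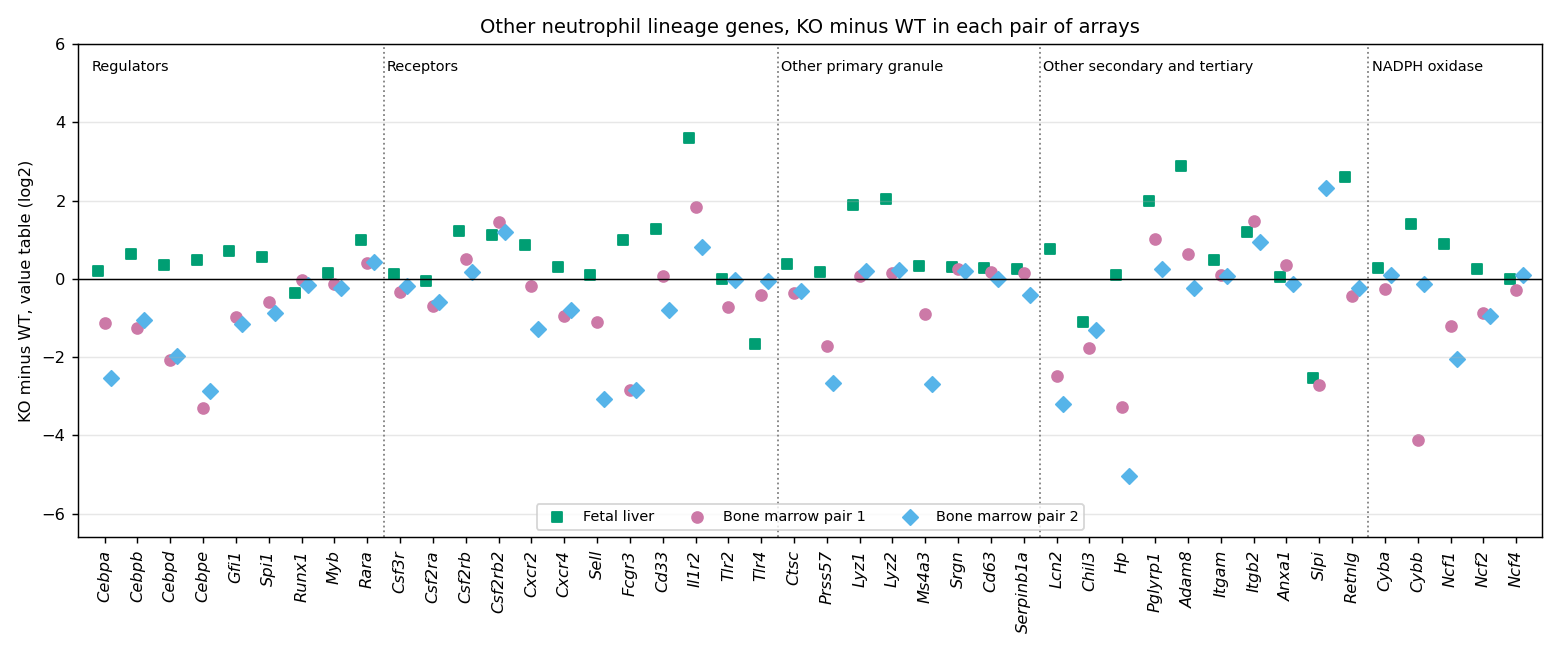
KO minus WT on the log2 scale, from the value table, for other genes of the neutrophil lineage by list, in FL (squares), BM pair 1 (circles) and BM pair 2 (diamonds), 1 pair of arrays each. Cebpa, Cebpd and Cebpe lie below 0 in both BM pairs and above 0 in FL, while most further granule genes scatter around 0 in BM.

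Markers of other cell types moved in the same BM comparison, and their part in the granule gene differences was not tested. By the table, 10 of 11 monocyte and dendritic cell genes were lower in BM KO (median -2.66), and Irf8, Mpeg1 and Ly86 passed, at -4.14, -4.76 and -5.77 (limma adjusted p = 0.0299, 0.0163 and 0.0287). The summed signal of that list was 228 and 198 in BM KO, against 515 and 309 in BM WT. Satb1, a lymphoid-primed marker, passed at -3.94. All 7 HSC genes tested (median 0.69) and all 5 megakaryocyte genes (median 0.96) were higher in BM KO, and 0 passed. With a slide block 7 monocyte and dendritic cell genes passed lower, and 2 HSC and 2 megakaryocyte genes passed higher. Over all genes 3.63% passed lower and 3.86% higher with the block, and 0.348% passed lower without it. Summed signals were 23.4 and 33.4 in BM KO, against 12.7 and 20.1 in BM WT, for the HSC list, and 222 and 244, against 122 and 103, for the megakaryocyte list. Of the other lists, 4 of 7 mast cell and basophil genes (median 1.08) and 4 of 5 erythroid genes (1.90) were higher in BM KO, and 4 of 5 lymphoid-primed genes (-1.86) were lower. Eosinophil, B cell and T and NK cell genes had medians of 0.00029, 0.10 and -0.06, and none of these lists' genes other than Satb1 passed without the block. With it, 4 lymphoid-primed, 2 T and NK cell and 1 B cell gene passed lower, and 4 mast cell and basophil and 2 erythroid genes passed higher. The sorting marker genes Kit and Ly6a differed by -0.01 and 0.76 (1.41 and 0.20 in the scanner files) and did not pass. All 11 monocyte and dendritic cell genes were lower in the scanner files (median -3.84), with Irf8, Mpeg1, Ly86 and Satb1 at -4.83, -6.10, -6.86 and -3.52. Medians there were 2.56 for HSC, 4.94 for megakaryocyte, 3.40 for mast cell and basophil, 1.20 for erythroid and 0.23 for eosinophil genes. They were -2.87 for lymphoid-primed, -2.81 for B cell and -2.28 for T and NK cell genes, and 0 genes of any list passed with or without the block. With the scanner file of BM WT replicate 1, that array had sums of 0.969 (HSC), 0.421 (megakaryocyte), 401 (erythroid) and 229 (B cell), against 12.7, 122, 6.97 and 21.4 in its table column.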

How the data were processed

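Amplified Cy3-labelled RNA of 6 KSL samples (10 ng each, per the labels' protocols) was measured on Agilent 1-colour arrays. Each spot's background-corrected intensity (gProcessedSignal) comes from the deposited scanner files, and Agilent Feature Extraction (version 10.7.1.1) is the software that the submitters' processing notes name. The authors' value table gives, per probe and sample, a deposited linear ratio, which for 5 arrays is the scanner signal over a constant near the 75th percentile. Its direction is that of the signal, its genes are not centred, and how the column of BM WT replicate 1 was made is not given in the sources used here. Column medians were 0.0709 for FL KO, 0.0705 for FL WT, 0.056 and 0.064 for BM KO, and 0.057 and 0.063 for BM WT.

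Both sources were put on the log2 scale and each array's 75th percentile was subtracted. Repeated spots were averaged without control spots and without spots flagged as outliers. RefSeq accessions named 27517 of 55681 probes, for 20891 genes. Some accessions (3508 probes) differed between slides, and the newest one named by the reference was used. A gene entered a test if at least 1 group had its probe well above background on all arrays. A table level of -3.7 stood in for the missing flags of BM WT replicate 1, chosen on BM KO replicate 1, where it matches 99.1% of flags. Tests ran in R 4.3.3 on limma 3.58.1 (tables were read with data.table, release 1.17.8), using lmFit, eBayes and Benjamini-Hochberg adjustment. They were also run on simulated data with equal spread for all genes and no slide effect or odd array. That check does not cover these features of the real arrays. BM arrays of the same replicate number deviated together in the table (r = 0.561) and not in the scanner files (r = 0.046). Slide values are given because each slide, as named by the scanner files, holds both genotypes.

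The 10 members, the 16 other gene lists and the tests were chosen with earlier results of these data known. The genes to be named were all members, genes of the lists that passed in BM, the 3 of each list with the largest BM difference in the table values, the 5 likest genes per stage, and Trim28, Kit and Ly6a. List genes that bear on no granule gene result are given as counts. Alternatives were quantile scaling, normexp background correction, other filters, all probes averaged, the slide as a block and each BM array left out. Precision is limited by the small number of arrays.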

Additional observations from a re-analysis of the deposited data

Results flagged for a closer look

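For 5 granule genes the KO array was the higher one in fetal liver and the lower one in both bone marrow pairs, in both sources. The genes were picked by this pattern, and the share of all genes that show it was not worked out. FL and BM pair 2 values are nearly the same in both sources. The values below are the BM difference minus the FL difference on the log2 scale, and they are negative by the way the genes were picked. Mpo gave -3.15 by scanner files and -3.74 by the table, Ltf -8.02 and -4.72, and Ngp -6.01 and -3.61. Mmp8 gave -7.83 and -6.06, and S100a8 -4.67 and -1.96. For Mpo the FL difference was only 0.05, and for S100a8 it was 0.34. The Mmp8 and Ngp values are of measured signals and give no exact size, since Mmp8 was not well above background in BM KO and FL WT, nor Ngp in FL WT. As bounds in the table, Mmp8 was at least 5.37-fold lower in BM KO and at least 3.01-fold higher in FL KO, and Ngp at least 2.87-fold higher in FL KO. The interaction did not pass for any of the 5 in limma, with an adjusted p of 0.9997 in the scanner files for each. In the table the limma adjusted p was 0.9999 for Mpo, 0.172 for Ltf, 0.312 for Ngp, 0.229 for Mmp8 and 0.394 for S100a8. With the slide as a block it was 0.288, 0.0216, 0.0805, 0.0209 and 0.0665 in the same order of genes. The FL difference rests on 1 array per genotype.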

How the results depend on the processing

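Genes passing in BM KO against WT by the scanner files numbered 0, against 104 when the table column of BM WT replicate 1 replaced its scanner file, and 0 to 2392 when 1 BM array was left out (148 without BM WT replicate 1, 2392 without BM WT replicate 2). Granule genes passing were 0, against 4 with the table column and 0 to 8 with 1 array left out. By the table values 105 genes passed, against 10 with no filter, 26 with a filter on every array, 970 with the slide as replicate block, and 87 to 654 with 1 array left out. Granule genes passing by the table were 4, against 0 with no filter, 2 with a filter on every array, 9 with the block, and 3 to 8 with 1 array left out. The filter on every array removes Mmp8 by its construction, and the other causes were not tested.

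Over both tissues 0 genes passed in the scanner files and 2 with quantile scaling. In the table values 24 passed, against 37 with quantile scaling, 11 with no filter, 0 with the replicate block, and 0 with any 1 array left out. For BM against FL, 291 genes passed in the scanner files, against 190 with normexp and 0 to 1551 with 1 array left out, and 0 to 4 granule genes then passed. In the table values 3115 passed, against 1796 with no filter, 833 with the slide as random replicate block, and 1138 to 1676 with 1 array left out. For the interaction, leaving out 1 array gave 0 to 1401 genes and 0 to 6 granule genes in the scanner files, and 1 to 319 genes and 0 to 4 granule genes in the table. There, quantile scaling gave 96 genes and 1 granule gene, and the replicate block 382 and 4.

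The BM medians of the early and late genes were negative under every alternative run. In the table they were -4.69 to -2.48 (early) and -2.62 to -2.08 (late) with 1 array left out, and in the scanner files -3.62 to -1.13 (without BM KO replicate 2) and -7.48 (without BM WT replicate 2) to -2.24 (without BM WT replicate 1). With 1 array left out, some differences, none of which had passed, changed sign. These were Ltf in BM against FL (-2.21 to 0.49) and over both tissues (-2.99 to 0.62) and Prtn3 in the interaction (-2.35 to 0.36), in the scanner files. In the table they were Ngp over both tissues (-0.58 to 0.18) and, in BM KO against WT, Kit (-0.109 to 0.082, and 0.0463 with quantile scaling), Ly6a (-0.46 to 1.98), Vpreb3 (-0.60 to 1.88) and Cd79b (-0.32 to 0.51). Normexp used the median signals, an alternative chosen after seeing the data, since the mean signal planned for it was not used here.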
